A study of Homo sapiens with 2 samples.

Results

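The WNT pathway genes described here are 53 genes of the 26485 listed in the count table. They were chosen by name, with earlier results of these data known. They comprise the 19 WNT ligands, the 10 Frizzled (FZD) receptors, the secreted antagonists SFRP1, SFRP2, SFRP4, SFRP5 and DKK1 to DKK4, and 16 further receptors, regulators and transcription factors. Total RNA was sequenced from a pair of human leiomyosarcoma lines treated with the solvent DMSO, namely SK-LMS-1 (1 library) and SK-UT-1 (1 library). As background, leiomyosarcoma is a tumour of smooth muscle type. SK-LMS-1 was established from a tumour of the vulva and SK-UT-1 from one of the uterus. The study concerns an SUV39H2 inhibitor combined with a PARP inhibitor, and the comparison made here asks how the WNT genes differed between the lines with solvent alone.

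WNT proteins are secreted, lipid-modified ligands. Together with a Frizzled receptor and the co-receptor LRP5 or LRP6 they halt a cytoplasmic complex, built on AXIN and APC, that otherwise marks beta-catenin for degradation. Beta-catenin then binds the TCF/LEF transcription factors on their target genes. Several of these targets, such as AXIN2, NKD1, ZNRF3 and DKK1, encode inhibitors of the pathway and close a negative feedback loop. Some ligands, WNT5A best known among them, act mainly through branches that do not need beta-catenin. In the uterus the pathway is known for its part in patterning the reproductive tract and its muscle wall.

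Depth was 6906280 counts in the SK-LMS-1 library and 7635850 in that of SK-UT-1. The WNT genes took 13283 of these counts in SK-LMS-1 cells, or 0.192% of the library (0.189 to 0.196), and 9213 in SK-UT-1 cells, or 0.121% of the library (0.118 to 0.123). Levels of a gene in the 2 lines are given in CPM, counts relative to a TMM-scaled library size, and levels of different genes within a line in TPM, which divides by gene length. Genes reaching 1 CPM in at least 1 library are termed measured. Ranges printed in parentheses are exact 95% intervals and reflect counting error alone; reads amplified without molecular identifiers are not independent molecules. With 1 library per line, no difference has a replicate check and no test was possible. More cells expressing a gene and more RNA per cell cannot be told apart in such bulk RNA. Of 11 smooth muscle marker genes, 7 were at 1 CPM or more in SK-LMS-1 cells and 8 in SK-UT-1 cells, summing to 1468 and 529 CPM. MYOCD, the master regulator of that lineage, had 0 counts in both lines. The muscle gene DES had 1 count in SK-LMS-1 cells and 26 in SK-UT-1 cells, and MYH11, listed at 2 loci and so uncertain, had 5 and 2. Contractile genes of the list differed in both directions. ACTA2 stood at 10.5 CPM in SK-LMS-1 cells and 54.0 CPM in SK-UT-1 cells, and MYLK at 414 and 9.94 CPM. ACTG2 had 39 counts in SK-LMS-1 cells and 0 in SK-UT-1 cells. Markers of other cell types summed to 178 CPM in SK-LMS-1 cells and 48.0 CPM in SK-UT-1 cells for 6 epithelial genes, 92.2 and 14.5 CPM for 5 haematopoietic genes with PTPRC at 0 in both, 1.53 and 0 CPM for 4 endothelial genes, and 0 and 1.12 CPM for 3 intestinal genes. Their part in the differences below was not tested.

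Promoter sequences are shown for 3 genes that carry the main contrasts below. These are DKK1, the antagonist with the highest TPM in SK-LMS-1 cells, WNT5A, with the largest ratio towards SK-LMS-1, and TCF7L1, with the largest ratio towards SK-UT-1. Each is the stretch of 250 bases before the RefSeq transcription start (the upstream one of 2 for WNT5A), 5′ to 3′ on the gene's strand, in build GRCh38.p14. Capitals mark CTTTGA or its reverse complement TCAAAG, the core of the TCF/LEF binding motif. The DKK1 stretch is chr10:52314031-52314280 (plus strand), that of WNT5A is chr3:55487307-55487556 (minus strand), and that of TCF7L1 is chr2:85133142-85133391 (plus strand).
DKK1: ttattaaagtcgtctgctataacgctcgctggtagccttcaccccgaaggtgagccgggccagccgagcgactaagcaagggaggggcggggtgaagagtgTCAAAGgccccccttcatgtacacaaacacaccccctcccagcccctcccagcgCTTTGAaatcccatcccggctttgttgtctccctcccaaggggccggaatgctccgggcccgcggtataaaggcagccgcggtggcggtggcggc
WNT5A: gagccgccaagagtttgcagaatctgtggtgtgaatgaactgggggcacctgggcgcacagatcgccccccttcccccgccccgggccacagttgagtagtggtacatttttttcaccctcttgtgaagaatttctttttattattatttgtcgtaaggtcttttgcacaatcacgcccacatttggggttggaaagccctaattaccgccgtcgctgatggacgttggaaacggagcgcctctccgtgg
TCF7L1: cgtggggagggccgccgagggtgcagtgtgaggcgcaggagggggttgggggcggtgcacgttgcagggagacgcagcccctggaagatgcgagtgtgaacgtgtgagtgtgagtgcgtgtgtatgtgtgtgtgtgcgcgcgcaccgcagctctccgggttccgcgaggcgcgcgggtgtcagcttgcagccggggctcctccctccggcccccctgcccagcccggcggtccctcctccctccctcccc

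The DKK1 window held the core once on each strand, starting 149 and 95 bases before the transcription start. RefSeq windows, running from 250 bases before to 50 bases after a start, were matched for 37 of the 53 genes, with 48 windows because some genes have several starts. Only 2 of these 48 windows held the core, that of DKK1 and 1 of PORCN (9 bases before its start), while 12.9% of all 35116 windows did. A second copy, as in DKK1, was present in 1.29% of all windows. The longer forms CTTTGAT and ATCAAAG, which contain the core, were in 2.62% of all windows and in 0 of the 48. These matches describe letters in a short window and not binding.

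The WNT genes differed between the lines in both directions, with WNT5A, FZD6, FZD8, DKK1 and DKK3 far higher in SK-LMS-1 cells, and AXIN2, NKD1, TCF7 and TCF7L1 far higher in SK-UT-1 cells. Of the 53 genes, 32 were measured. At a 2-fold size rule, 14 of the 32 were higher in SK-LMS-1 cells, beside a background of 21.9% of all 14324 measured genes, and 11 were higher in SK-UT-1 cells, beside 18.3%. The remaining 7 lay within 2-fold. As shares of the measured WNT genes these counts are 43.8% and 34.4%. A gene that passed the filter through 1 library alone had little room to lie within 2-fold, as was so for 4 WNT genes in SK-LMS-1 cells and 6 in SK-UT-1 cells, so the 22 at 1 CPM or more in both lines were also counted. Among these, 10 were higher in SK-LMS-1 cells and 6 in SK-UT-1 cells, or 45.5% and 27.3%, beside 15.3% and 12.98% of 11746 genes. At 4-fold, 10 and 7 of the 32 passed, beside 11.4% and 7.3% of all measured genes. The median log2 ratio of the 32, SK-LMS-1 over SK-UT-1, was 0.56, with members from -6.82 to 6.81, and that of all measured genes was 0.01.

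**Figure D1:**
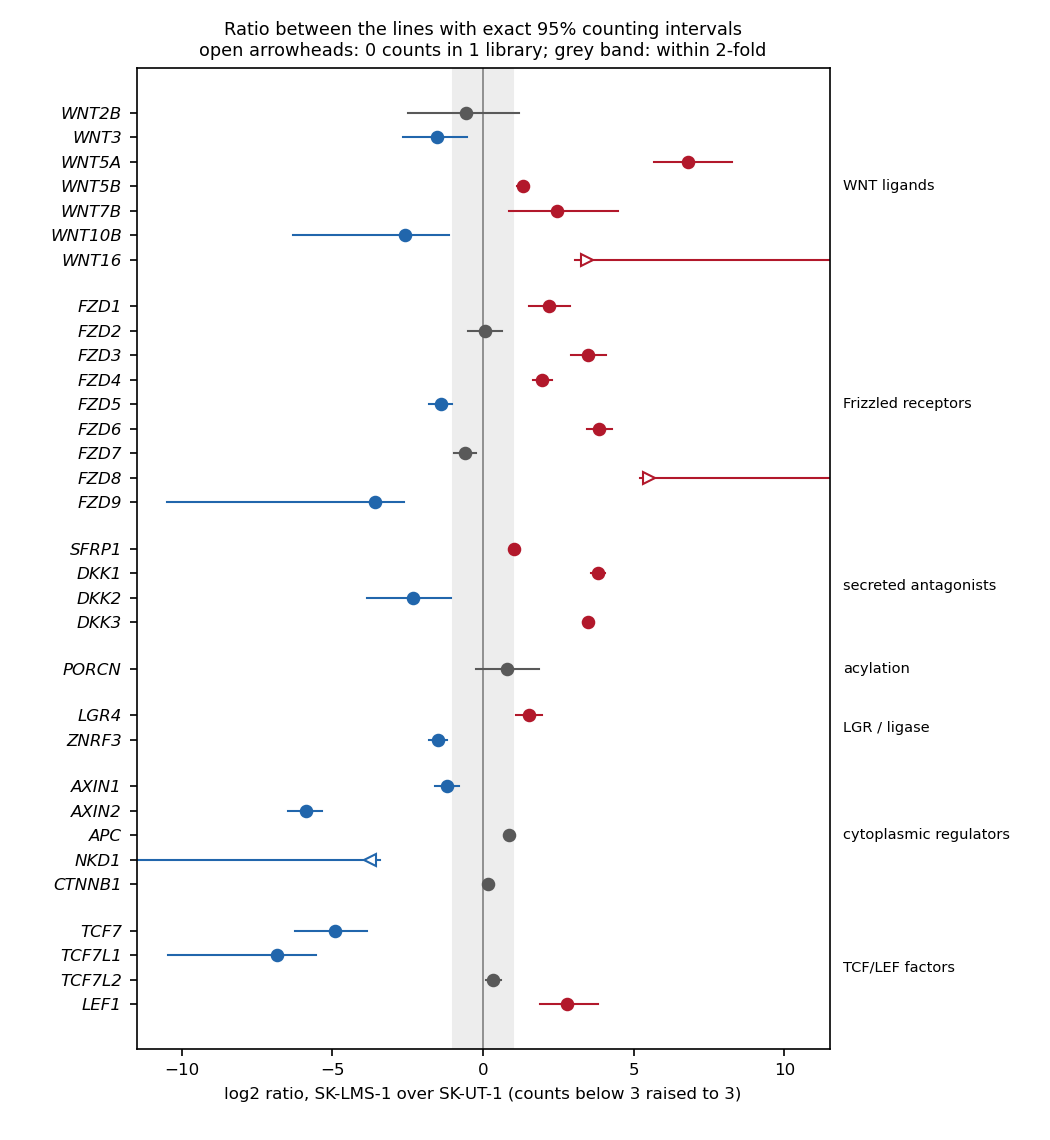
Log2 ratio of each measured WNT gene, SK-LMS-1 over SK-UT-1 (x axis, counts below 3 raised to 3), with exact 95% intervals as lines; red is 2-fold or more higher in SK-LMS-1 cells, blue 2-fold or more higher in SK-UT-1 cells, and open arrowheads mark 0 counts in 1 library. WNT5A stands farthest to the right at 6.81 and TCF7L1 farthest to the left at -6.82, while CTNNB1 at 0.17 lies close to 0; lines belong to the ratio of the counts as they are, so points of genes with 1 or 2 counts in a library lie off centre.

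Unmeasured were 21 genes. Among them 10 had 0 counts in both lines, namely WNT1, WNT2, WNT7A, WNT8A, WNT8B, WNT9B, SFRP2, SFRP4, DKK4 and the stem cell receptor gene LGR5. A floor of 3 counts was taken for a count of 0, or 0.458 CPM in SK-LMS-1 cells and 0.373 CPM in SK-UT-1 cells. The exact 95% interval of 0 counts reaches 3.69 counts, so a fold written below with at least is a bound against the floor and not a 95% limit, which is lower (10.6 for NKD1, against 13.6 with the floor). The other 11 had at most 8 counts. These were WNT3A, WNT4, WNT6, WNT9A, WNT10A, WNT11, FZD10, SFRP5, LGR6, NKD2 and RNF43. WNT11, with 0 counts in SK-LMS-1 cells and 8 in SK-UT-1 cells, stood at 0.994 CPM in SK-UT-1 cells, just under the limit. WNT2B, at 1.12 CPM in SK-UT-1 cells, was the measured member closest above it. WNT3, WNT9B and NKD2 are listed on alternative contigs as well as on their chromosome, which makes their counts uncertain.

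Among the ligands, WNT5B was the leading gene of both lines and WNT5A was abundant in SK-LMS-1 cells alone. WNT5A, on the minus strand of chromosome 3 (55465715 to 55487642, hg38), had 549 counts in SK-LMS-1 cells and 6 in SK-UT-1 cells, or 83.8 and 0.745 CPM. It was thus 112-fold higher in SK-LMS-1 cells (51.3 to 308). Its close relative WNT5B stood at 112 CPM in SK-LMS-1 cells and 45.2 CPM in SK-UT-1 cells, 2.48-fold higher in SK-LMS-1 cells (2.19 to 2.82). In SK-LMS-1, WNT5B held 75% ± 1.05 of the summed ligand TPM and WNT5A 20.7% ± 0.913 (± counting SE). In SK-UT-1, WNT5B held 86.6% ± 1.53 and WNT5A 0.528% ± 0.216. The 2 WNT5 genes thus made up nearly all ligand RNA of SK-LMS-1. Summed over the 19 ligands, TPM was 180.5 in SK-LMS-1 cells and 70.2 in SK-UT-1 cells.

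Other ligands were present at low levels and differed in identity between the lines. WNT16 had 27 counts (4.12 CPM) in SK-LMS-1 cells and 0 in SK-UT-1 cells, higher in SK-LMS-1 cells by at least 11.1-fold against a floor of 3 counts. WNT7B, a ligand able to signal through beta-catenin, had 18 counts in SK-LMS-1 cells and 4 in SK-UT-1 cells, 5.53-fold higher in SK-LMS-1 cells (1.82 to 22.5). The second ligand of SK-UT-1 by TPM was WNT10B, another ligand of the beta-catenin branch. WNT10B had 2 counts in SK-LMS-1 cells and 22 in SK-UT-1 cells, 8.96-fold higher in SK-UT-1 cells (2.20 to 78.6). WNT3, uncertain as said, had 11 counts in SK-LMS-1 cells and 39 in SK-UT-1 cells, 2.89-fold higher in SK-UT-1 cells (1.45 to 6.25). WNT2B had 5 and 9 counts and a ratio of SK-LMS-1 over SK-UT-1 with an interval from 0.180 to 2.27, so no difference was detectable at this depth. In SK-UT-1 the TPM of WNT10B was 3.58 (2.25 to 5.43), that of WNT11 1.60 (0.692 to 3.16) and that of WNT3 1.496 (1.06 to 2.05). The intervals of neighbours in this order overlap. Of the 7 measured ligands, 4 were 2-fold or more higher in SK-LMS-1 cells and 2 in SK-UT-1 cells. These are 57.1% and 28.6%, beside the backgrounds of 21.9% and 18.3%. The median log2 ratio of the 7 was 1.31. WNT5A, WNT7B and WNT16 reached 1 CPM in SK-LMS-1 cells alone, and of the 2 ligands with 10 counts or more in both lines 1 was higher in each. That median was 0.23 when libraries were scaled by their totals and 0.25 with the upper quartile, where WNT11 also counts as measured.

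**Figure D2:**
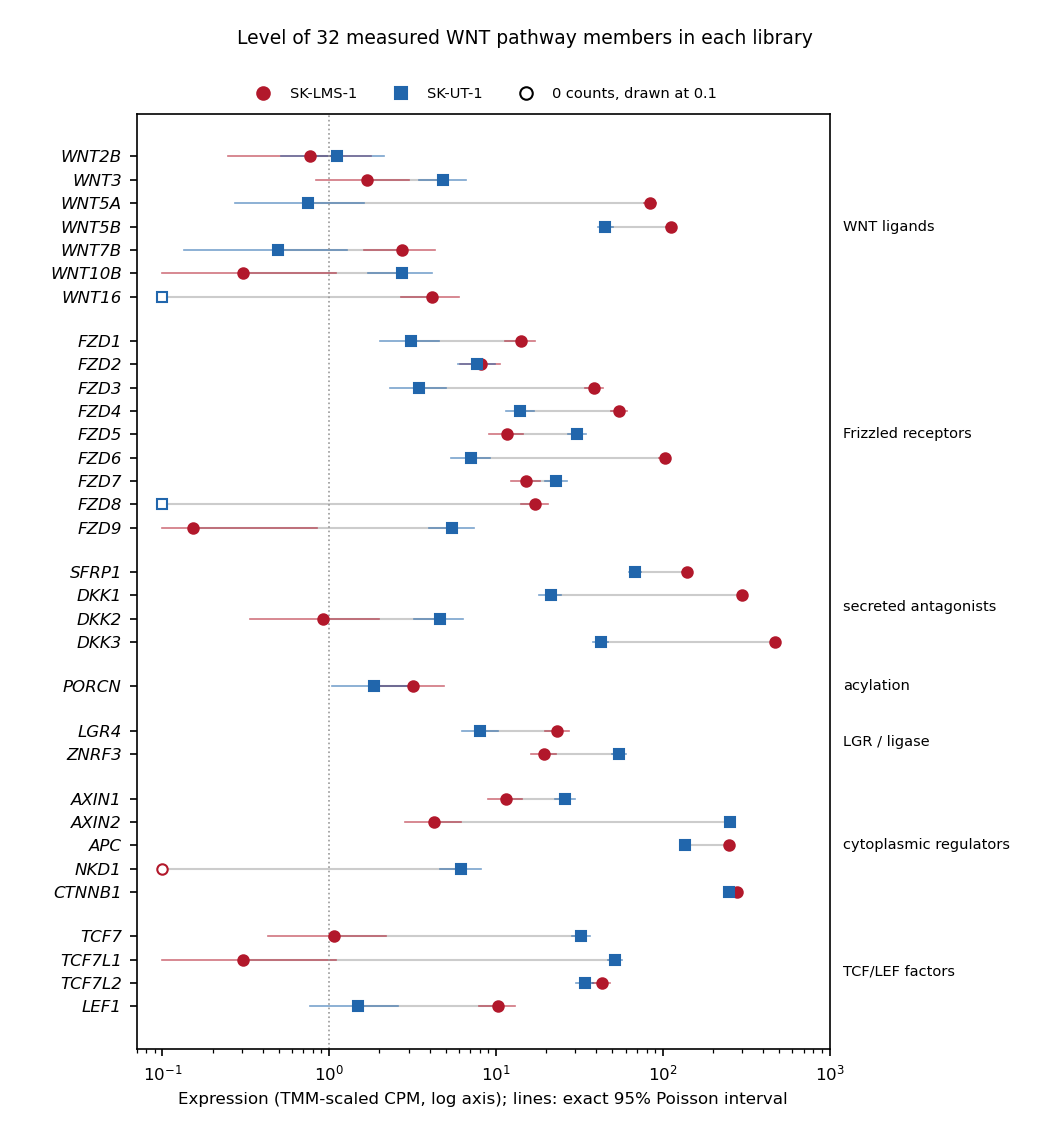
Level of the 32 measured WNT genes in TMM-scaled CPM (x axis, log scale) in SK-LMS-1 cells (red circles) and SK-UT-1 (blue squares), grouped by role, with exact 95% Poisson intervals; open symbols stand for 0 counts and the dotted line for 1 CPM. WNT5A at 83.8 and 0.745 CPM and AXIN2 at 4.27 and 253 CPM in SK-LMS-1 cells and SK-UT-1 cells are examples of wide gaps in the 2 directions.

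Ligands leave the cell only after acylation by PORCN and transport by WLS. PORCN had 21 counts in SK-LMS-1 cells and 15 in SK-UT-1 cells, a ratio of 1.72 (0.845 to 3.59) whose interval includes 1. WLS, a gene of the wider pathway, stood at 97.5 CPM in SK-LMS-1 cells and 13.4 CPM in SK-UT-1 cells, 7.27-fold higher in SK-LMS-1 cells (5.92 to 8.996).

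The Frizzled receptors, the 7-pass membrane proteins that bind WNT ligands, differed in their proportions between the lines. FZD1 to FZD7 were at 1 CPM or more in both lines. FZD6 led in SK-LMS-1 cells, with 103 CPM there and 7.08 CPM in SK-UT-1 cells, 14.5-fold higher in SK-LMS-1 cells (11.1 to 19.4). It held 49.5% ± 1.29 of the summed Frizzled TPM of SK-LMS-1 and 9.13% ± 1.15 of that of SK-UT-1. FZD8, on the minus strand of chromosome 10 (35638249 to 35641434), had 112 counts (17.1 CPM) in SK-LMS-1 cells and 0 in SK-UT-1 cells. It was higher in SK-LMS-1 cells by at least 45.9-fold against the floor (lower 95% limit 36.7). FZD3 stood at 38.8 CPM in SK-LMS-1 cells and 3.48 CPM in SK-UT-1 cells, 11.1-fold higher in SK-LMS-1 cells (7.53 to 17.1). FZD1 and FZD4 were also higher in SK-LMS-1 cells, by 4.52-fold (2.88 to 7.34; 14.04 and 3.11 CPM) and 3.90-fold (3.15 to 4.86; 54.8 and 14.04 CPM).

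SK-UT-1 carried more of FZD5 and FZD9. FZD5 stood at 11.6 CPM in SK-LMS-1 cells and 30.6 CPM in SK-UT-1 cells, 2.64-fold higher in SK-UT-1 cells (2.03 to 3.45). FZD9 had 1 count in SK-LMS-1 cells and 44 in SK-UT-1 cells, 35.8-fold higher in SK-UT-1 cells (6.10 to 1447). FZD7, with 15.1 CPM in SK-LMS-1 cells and 23.0 CPM in SK-UT-1 cells, lay within 2-fold at 1.52-fold higher in SK-UT-1 cells (1.19 to 1.96), and it led the Frizzled genes of SK-UT-1 with 30.3% ± 1.83 of their TPM. FZD7 (TPM 18.5, 16.0 to 21.4) and FZD5 (14.5, 12.7 to 16.4) of that line had overlapping intervals. FZD2 stood at 8.09 CPM in SK-LMS-1 cells and 7.70 CPM in SK-UT-1 cells. Its log2 ratio of 0.07 became -0.08 with library totals and -0.06 with the upper quartile, so its direction depends on the scaling. Of 9 measured Frizzled genes, 5 were 2-fold or more higher in SK-LMS-1 cells and 2 in SK-UT-1 cells. Beside the backgrounds of 21.9% and 18.3%, these counts are 55.6% and 22.2%. The median log2 ratio of the Frizzled genes was 1.96. Their summed TPM was 147 in SK-LMS-1 cells and 61.3 in SK-UT-1 cells.

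**Figure D3:**
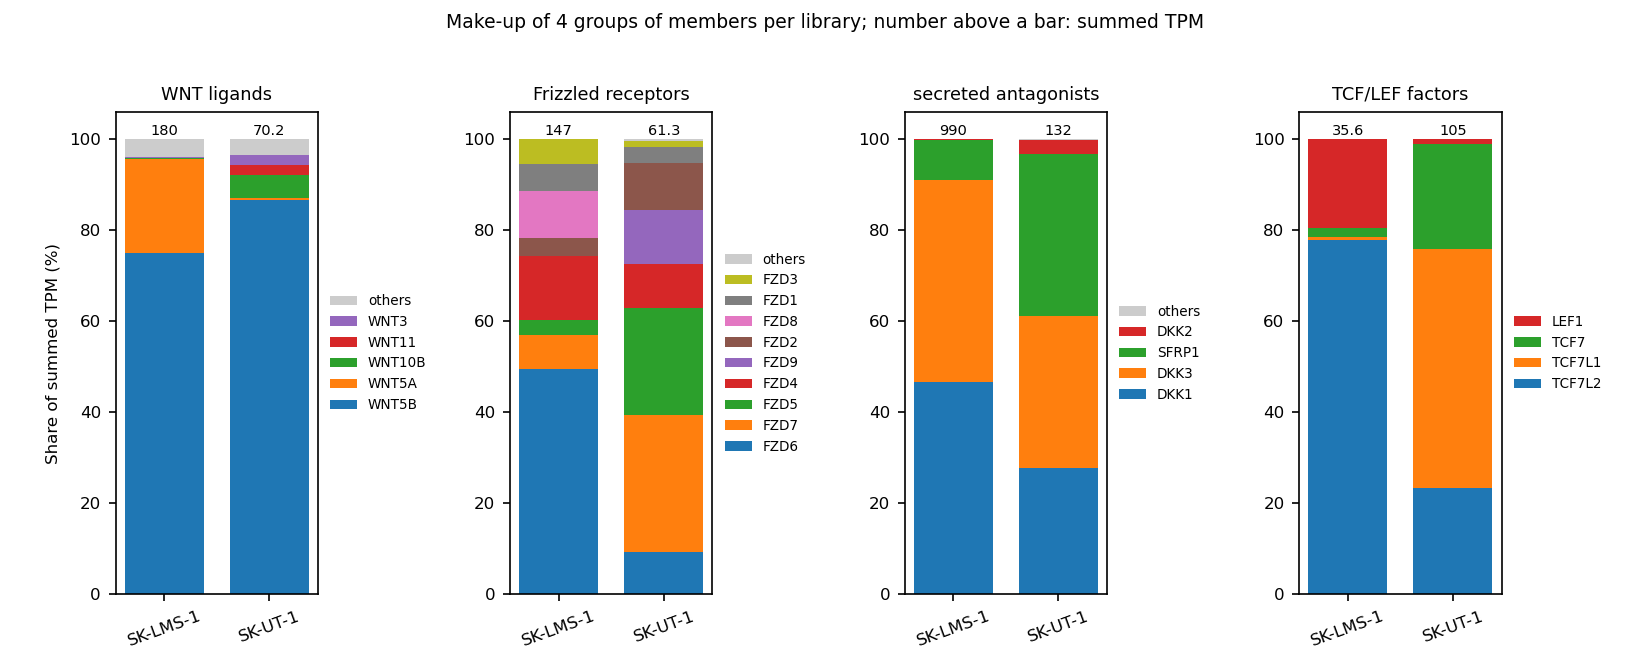
Share of each gene in the summed TPM (y axis, %) of the WNT ligands, Frizzled receptors, secreted antagonists and TCF/LEF factors, with SK-LMS-1 left of SK-UT-1 in each panel and the summed TPM above each bar. WNT5B leads the ligands of both lines (75% and 86.6%), whereas the leading TCF/LEF gene is TCF7L2 in SK-LMS-1 cells (77.8%) and TCF7L1 in SK-UT-1 cells (52.6%).

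Secreted antagonists were far more abundant in SK-LMS-1 cells, where DKK1 and DKK3 ranked among the most highly expressed genes. DKK1, which blocks LRP5 and LRP6, lies on the plus strand of chromosome 10 (52314281 to 52317657). It had 1959 counts in SK-LMS-1 cells and 171 in SK-UT-1 cells, or 299 and 21.2 CPM, 14.1-fold higher in SK-LMS-1 cells (12.0 to 16.6). By TPM, 98.3% of measured genes lay at or below DKK1 in SK-LMS-1 cells and 63.0% in SK-UT-1 cells. DKK3, a divergent member of the family whose role in WNT signalling is less clear, stood at 473 CPM in SK-LMS-1 cells and 42.5 CPM in SK-UT-1 cells, 11.1-fold higher in SK-LMS-1 cells (9.95 to 12.5). DKK1 and DKK3 had like levels in SK-LMS-1 cells, at TPM values of 461 (441 to 482) and 440.4 (425 to 456), whose intervals overlap. In SK-UT-1 the TPM of SFRP1 was 47.4 (43.5 to 51.5), that of DKK3 44.2 (39.6 to 49.1) and that of DKK1 36.6 (31.3 to 42.5), neighbours that again overlap.

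SFRP1, a secreted protein that binds WNT ligands through a Frizzled-like domain, stood at 140.1 CPM in SK-LMS-1 cells and 68.1 CPM in SK-UT-1 cells. Its ratio of 2.06 (1.85 to 2.29) sat at the 2-fold limit, and its log2 ratio of 1.04 was 0.89 with library totals and 0.91 with the upper quartile, under the limit. DKK2 went the other way, with 6 counts in SK-LMS-1 cells and 37 in SK-UT-1 cells, 5.02-fold higher in SK-UT-1 cells (2.10 to 14.6). The 8 antagonist genes summed to a TPM of 989.7 in SK-LMS-1 cells and 132 in SK-UT-1 cells, the widest gap of the 4 groups summed in this way. Of the 4 measured, 3 were 2-fold or more higher in SK-LMS-1 cells and 1 in SK-UT-1 cells, or 75% and 25%. The backgrounds were 21.9% and 18.3% of all measured genes.

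LGR4 to LGR6 are receptors of the R-spondins, and RNF43 and ZNRF3 are membrane ubiquitin ligases that remove Frizzled receptors and are held back by R-spondins. LGR4 was the only LGR gene measured, with 23.4 CPM in SK-LMS-1 cells and 8.08 CPM in SK-UT-1 cells, 2.89-fold higher in SK-LMS-1 cells (2.15 to 3.93). ZNRF3 stood at 19.4 CPM in SK-LMS-1 cells and 54.7 CPM in SK-UT-1 cells, 2.82-fold higher in SK-UT-1 cells (2.31 to 3.46). RNF43, its close relative, had 2 counts in SK-LMS-1 cells and 0 in SK-UT-1 cells. Among the R-spondin genes themselves, RSPO2 and RSPO3 had 0 counts in both lines and RSPO1 0 counts in SK-LMS-1 cells and 6 in SK-UT-1 cells. RSPO4 had 0 counts in SK-LMS-1 cells and 61 (7.58 CPM) in SK-UT-1 cells, higher in SK-UT-1 cells by at least 16.6-fold against the floor.

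Among the cytoplasmic genes, AXIN1, AXIN2 and NKD1 were higher in SK-UT-1 cells, whereas the genes of beta-catenin and APC lay within 2-fold. CTNNB1, which encodes beta-catenin, stood at 281 CPM in SK-LMS-1 cells and 250.2 CPM in SK-UT-1 cells, a ratio of 1.12 (1.05 to 1.195), and its log2 ratio of 0.17 was 0.01 with library totals. APC, with 248.6 CPM in SK-LMS-1 cells and 137 CPM in SK-UT-1 cells, was 1.82-fold higher in SK-LMS-1 cells (1.68 to 1.97). AXIN1, the constitutive scaffold, stood at 11.4 CPM in SK-LMS-1 cells and 26.0 CPM in SK-UT-1 cells, 2.27-fold higher in SK-UT-1 cells (1.73 to 2.99). AXIN2, its feedback-induced relative on the minus strand of chromosome 17 (65528565 to 65561622), had 28 counts in SK-LMS-1 cells and 2034 in SK-UT-1 cells, or 4.27 and 253 CPM. It was 59.1-fold higher in SK-UT-1 cells (40.8 to 89.2). By TPM, 16.6% of measured genes lay at or below AXIN2 in SK-LMS-1 cells and 93.3% in SK-UT-1 cells. AXIN1 was the more abundant scaffold in SK-LMS-1 cells, with a TPM of 8.71 against 2.81 for AXIN2. In SK-UT-1 the order was the opposite, with 22.0 for AXIN1 and 186 for AXIN2. NKD1, which encodes a feedback inhibitor that binds Dishevelled, had 0 counts in SK-LMS-1 cells and 50 (6.21 CPM) in SK-UT-1 cells, higher in SK-UT-1 cells by at least 13.6-fold against the floor.

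The 4 TCF/LEF factors, which share a DNA-binding domain and differ in how far they repress without beta-catenin, changed places between the lines. TCF7L1, best known as the repressor of the family, lies on chromosome 2, plus strand (85133460 to 85310388), and had 2 counts in SK-LMS-1 cells and 417 in SK-UT-1 cells, or 0.305 and 51.8 CPM. It was 169.7-fold higher in SK-UT-1 cells (46.7 to 1406). TCF7, itself a target gene of the pathway, had 7 counts in SK-LMS-1 cells and 261 in SK-UT-1 cells, or 1.07 and 32.4 CPM, 30.4-fold higher in SK-UT-1 cells (14.5 to 76.2). Against these, LEF1 had 67 counts in SK-LMS-1 cells and 12 in SK-UT-1 cells, or 10.2 and 1.49 CPM, 6.86-fold higher in SK-LMS-1 cells (3.68 to 13.9). TCF7L2 differed little, at 43.0 CPM in SK-LMS-1 cells and 34.0 CPM in SK-UT-1 cells, a ratio of 1.26 (1.07 to 1.498). Within SK-LMS-1, TCF7L2 made up 77.8% ± 2.24 of the summed TPM of the 4 genes and LEF1 19.4% ± 2.12. Within SK-UT-1, TCF7L1 made up 52.6% ± 1.62, TCF7L2 23.3% ± 1.28 and TCF7 23.0% ± 1.29. Summed TPM of the 4 was 35.6 in SK-LMS-1 cells and 105 in SK-UT-1 cells.

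Taking the members that are widely used as target genes of beta-catenin, the lines were split. The list holds AXIN2, NKD1, LGR5, RNF43, ZNRF3, TCF7, LEF1, DKK1 and DKK4, of which 6 were measured. LEF1 and DKK1 were higher in SK-LMS-1 cells, and AXIN2, NKD1, ZNRF3 and TCF7 were higher in SK-UT-1 cells. The counts, 2 and 4 of 6, are 33.3% and 66.7%, beside backgrounds of 21.9% and 18.3%. The median log2 ratio of the 6 was -2.63, and over the 4 with 10 counts or more in both lines it was 0.64. That filter leaves out NKD1 and TCF7, which were low in SK-LMS-1 cells, so the change of sign comes with the filter. The 6 genes themselves lay on both sides, so no single direction describes these target genes. RefSeq windows matched for DKK1, LEF1, RNF43 and TCF7 of this list, and the core motif shown above was present only in that of DKK1.

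**Figure D4:**
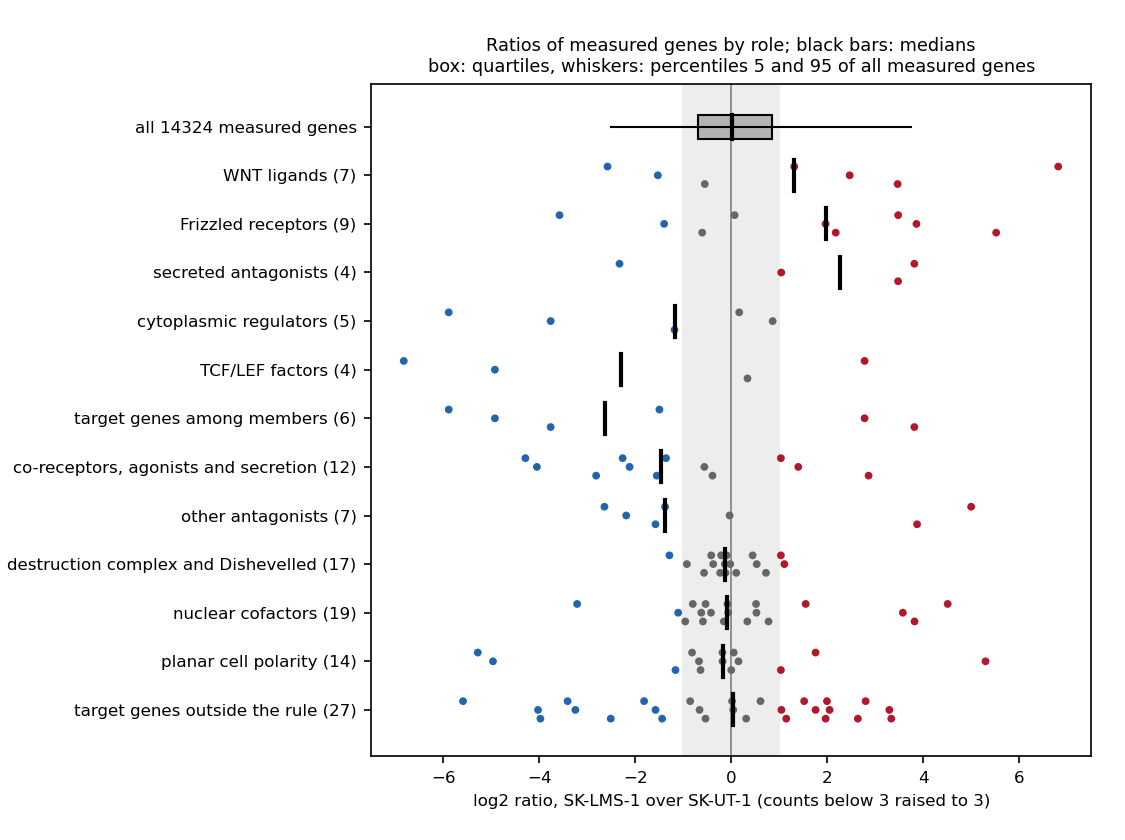
Log2 ratios, SK-LMS-1 over SK-UT-1 (x axis), of measured genes in each role group and each further pathway list, 1 point per gene, with the number of genes in parentheses and medians as black bars; the top row gives the median, quartiles and percentiles 5 and 95 of all measured genes. Genes listed for the destruction complex, without AXIN1, AXIN2 and APC, cluster near 0 (median -0.12), whereas medians of Frizzled receptors (1.96) and TCF/LEF factors (-2.29) lie on opposite sides.

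Other genes of the pathway were described from 6 lists with 120 genes, 95 of them measured. Of these 95, 25 were 2-fold or more higher in SK-LMS-1 cells and 25 in SK-UT-1 cells, beside the same backgrounds of 21.9% and 18.3%, with a median log2 ratio of -0.16. With library totals the counts were 19 and 30. Of 12 measured co-receptor and agonist genes, 3 were 2-fold or more higher in SK-LMS-1 cells and 7 in SK-UT-1 cells (median -1.46). These are 25% and 58.3%, beside the same backgrounds. Of the 7, ROR2, RSPO4 and GPC4 reached 1 CPM in SK-UT-1 cells alone, and of the 3, NDP in SK-LMS-1 cells alone. Such genes had little room to lie within 2-fold. LRP5 stood at 14.7 CPM in SK-LMS-1 cells and 43.0 CPM in SK-UT-1 cells, 2.93-fold higher in SK-UT-1 cells (2.33 to 3.72). LRP6 stood at 51.9 CPM in SK-LMS-1 cells and 133 CPM in SK-UT-1 cells, 2.56-fold higher in SK-UT-1 cells (2.27 to 2.91). ROR2, a receptor kinase for WNT5A, had 0 counts in SK-LMS-1 cells and 72 in SK-UT-1 cells, higher in SK-UT-1 cells by at least 19.5-fold. The further WNT5A receptor genes ROR1 and RYK, chosen after their values were seen, were detected in both lines. ROR1 stood at 22.0 CPM in SK-LMS-1 cells and 105 CPM in SK-UT-1 cells, and RYK at 96.1 and 142 CPM. PTK7, a co-receptor of planar polarity, was 7.03-fold higher in SK-UT-1 cells (5.56 to 9.01) and ADGRA2, a co-receptor for WNT7 ligands, 2.05-fold higher in SK-LMS-1 cells (1.204 to 3.55). With library totals or the upper quartile ADGRA2 lay under 2-fold and 2 genes of the list were higher in SK-LMS-1 cells.

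Among further antagonists, 2 of 7 measured genes were 2-fold or more higher in SK-LMS-1 cells and 4 in SK-UT-1 cells. The shares are 28.6% and 57.1%, beside 21.9% and 18.3% of all measured genes. DACT1, a Dishevelled-binding inhibitor, had 104 counts in SK-LMS-1 cells and 4 in SK-UT-1 cells, 31.9-fold higher in SK-LMS-1 cells (12.1 to 119). TPBG, a membrane inhibitor of the pathway, stood at 63.6 CPM in SK-LMS-1 cells and 4.35 CPM in SK-UT-1 cells, 14.6-fold higher in SK-LMS-1 cells (10.4 to 21.3). KREMEN1, a receptor for DKK proteins, stood at 9.46 CPM in SK-LMS-1 cells and 24.6 CPM in SK-UT-1 cells, 2.60-fold higher in SK-UT-1 cells (1.95 to 3.52). NOTUM, a secreted enzyme that removes the lipid of WNT ligands and is a target gene in other tissues, had 1 count in SK-LMS-1 cells and 11 in SK-UT-1 cells. Of the genes higher in SK-UT-1 cells, KREMEN2, NOTUM and DACT3 reached 1 CPM in that line alone. DACT1 did so in SK-LMS-1 cells alone, and such genes had little room to lie within 2-fold. KREMEN1 and TPBG, which differed in opposite directions, and IGFBP4, within 2-fold, reached 1 CPM in both lines. The list median of -1.38 was 1.92 over the 4 genes at 5 CPM or more.

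Apart from AXIN1, AXIN2 and APC, given above, 17 genes of the destruction complex and the Dishevelled group were measured. Of these, 14 lay within 2-fold, 2 were higher in SK-LMS-1 cells and 1 in SK-UT-1 cells. The counts of 2 and 1 are 11.8% and 5.88% of the 17, beside backgrounds of 21.9% and 18.3%. GSK3B, the kinase that marks beta-catenin, stood at 217 CPM in SK-LMS-1 cells and 202 CPM in SK-UT-1 cells, a ratio of 1.07 (0.99995 to 1.15). RNF146 and TNKS2, which act together in AXIN turnover, were higher in SK-LMS-1 cells by 2.15-fold (1.65 to 2.83) and 2.05-fold (1.86 to 2.26), and both lay under 2-fold with library totals. Nuclear cofactors had 13 of 19 measured genes within 2-fold, 4 higher in SK-LMS-1 cells and 2 in SK-UT-1 cells. These are 21.1% and 10.5%, beside the backgrounds of 21.9% and 18.3%. Of the Groucho family corepressor genes, partners of TCF factors, TLE1, TLE2 and TLE4 lay beyond 2-fold and TLE3 and AES within it. TLE4 stood at 50.8 CPM in SK-LMS-1 cells and 3.60 CPM in SK-UT-1 cells, 14.1-fold higher in SK-LMS-1 cells (9.64 to 21.4). TLE1 was 11.9-fold higher in SK-LMS-1 cells (8.996 to 16.1), whereas TLE2, with 8 counts in SK-LMS-1 cells and 91 in SK-UT-1 cells, was 9.26-fold higher in SK-UT-1 cells (4.51 to 22.1). HIPK2, a nuclear kinase, stood at 863 CPM in SK-LMS-1 cells and 37.9 CPM in SK-UT-1 cells, 22.8-fold higher in SK-LMS-1 cells (20.3 to 25.6), and the beta-catenin partner gene BCL9 was 2.15-fold higher in SK-UT-1 cells (1.75 to 2.66).

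Genes listed as targets in other tissues were split as well. Of 27 measured, 11 were 2-fold or more higher in SK-LMS-1 cells and 9 in SK-UT-1 cells. As shares of the 27 these are 40.7% and 33.3%, beside the backgrounds of 21.9% and 18.3%. The median log2 ratio was 0.04. Among genes at 5 CPM or more, SOX9, TBX3 and CD44 led towards SK-LMS-1, at 10.1-fold (7.81 to 13.2), 9.81-fold (8.72 to 11.1) and 6.22-fold (5.996 to 6.46). TNFRSF19, a TNF receptor family gene, had 46 counts in SK-LMS-1 cells and 2718 in SK-UT-1 cells, 48.1-fold higher in SK-UT-1 cells (36.0 to 65.9). ID2, an inhibitor of helix-loop-helix transcription factors, had 60 counts in SK-LMS-1 cells and 1160 in SK-UT-1 cells, 15.7-fold higher in SK-UT-1 cells (12.1 to 20.8). SP5, a close reporter of pathway activity in embryonic cells, was low, with 11 counts in SK-LMS-1 cells and 4 in SK-UT-1 cells, 3.38-fold higher in SK-LMS-1 cells (1.001 to 14.5). Many genes of this list respond to other pathways too. SP5 lay on the side opposite to AXIN2, but it reached 1 CPM in SK-LMS-1 cells alone (1.68 CPM, and 0.497 CPM in SK-UT-1 cells). With a lower limit of 1.001, the direction of SP5 is uncertain.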

How the data were processed

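RNA was sequenced from SK-LMS-1 and SK-UT-1 cells under DMSO, 1 library each, with a stranded SMARTer total RNA kit, per the labels' protocols. The authors deposited raw counts per gene, made with featureCounts 2.0.1 on hg38 and a UCSC annotation, per the file headers, with stranded counting of fragments over exons and fragments assigned to every overlapping gene. The name of the aligner was not given in the sources used here. Another 2 count columns of the table match neither sample and were left out. Gene length in bases is the authors' deposited exon length.

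The deposited counts were scaled with edgeR 4.0.16 (TMM factors 0.949 and 1.05) in R 4.3.3. Measured genes reached 1 CPM in at least 1 library (6.55 counts for SK-LMS-1 or 8.05 for the deeper SK-UT-1 library). Ratios are SK-LMS-1 over SK-UT-1, with counts below 3 raised to 3 for the size rules, ranking and medians. A fold against 0 counts uses that floor and is written with at least; one against 1 to 3 counts is the plain ratio. Intervals are exact at 95% (conditional binomial, Poisson or Clopper-Pearson, scipy 1.17.1), and counting SE of TPM shares comes from Poisson variances. All of them take fragments as independent molecules. TPM used the deposited length, so it depends on the annotated isoforms. Ratios and intervals were tested on simulated Poisson counts of genes with a mean of 5 CPM or more. That test does not cover genes near 0 counts in a library, or reads amplified from the same molecule.

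The WNT genes and the lists were chosen with earlier results of these data known. Measured WNT genes were all named. From each other list, up to 3 genes per direction at 5 CPM or more and past 2-fold could be named. LRP5, LRP6, GSK3B, SP5, NOTUM and RSPO1 to RSPO4 were named whatever their values. Not all genes this rule named are reported here, and further genes were named after their values were seen. Of 201 list symbols, 4 were matched by older names. Alternatives were library totals, DESeq2 1.42.0 size factors, upper quartile, other filters, floors and size rules, and leaving out overlapping genes (over 20% of exons on the same strand, bedtools 2.31.1) or genes at several loci.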

Additional observations from a re-analysis of the deposited data

How the results depend on the processing

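With the rules used above, 14 WNT genes were higher in SK-LMS-1 cells and 11 in SK-UT-1 cells. The count for SK-UT-1 was 5 over the 21 genes with 10 counts or more in both lines and 7 at 4-fold, and no other setting tried moved either count by over 1.5 times. The median of 0.56 ranged from 0.19 to 0.86 over the settings. Of the other pathway genes, 25 and 25, the count for SK-UT-1 was 11 with 10 counts in both lines, the 4-fold counts were 12 towards SK-LMS-1 and 16 towards SK-UT-1, and that for SK-LMS-1 was 16 when intervals had to clear 2-fold entirely. The sign changed in the median of the other antagonists, -1.38, to 1.92 at 5 CPM or more, and in that of the target genes among the WNT genes, -2.63, to 0.64 with 10 counts in both lines; both settings leave out genes that were low in 1 or both lines. Against TMM, library totals moved every log2 ratio by -0.15 and the upper quartile by -0.13, which put SFRP1 within 2-fold. With library totals the background shares were 19.5% towards SK-LMS-1 and 21.6% towards SK-UT-1. In the same order, they were 15.4% and 12.1% with 10 counts or more in both lines, and 11.4% and 7.3% at 4-fold. With intervals wholly beyond 2-fold they were 15.1% and 10.1%, so stricter rules lowered the counts over all genes too. Over 128 single-gene alternatives, 0 called genes changed sign and 4 values left their interval, those of APC and CTNNB1. Intervals cover counting error only, and genes with under about 10 counts have wide ones. No paired analysis was possible because each line has 1 library.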

Other observations

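Several WNT genes lie beside each other. WNT10B and WNT1 are separated by 6.59 kb on chromosome 12. WNT10B had 2 counts in SK-LMS-1 cells and 22 in SK-UT-1 cells, while WNT1 had 0 in both lines. WNT3 and WNT9B, 32.8 kb apart on chromosome 17 and both listed on alternative contigs, had 11 counts in SK-LMS-1 cells and 39 in SK-UT-1 cells for WNT3 and 0 in both lines for WNT9B. The pairs WNT9A and WNT3A on chromosome 1 and WNT6 and WNT10A on chromosome 2 had at most 2 counts in either line.

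Genes of planar cell polarity, the branch that orients cells within a sheet, had 8 of 14 measured members within 2-fold, 3 higher in SK-LMS-1 cells and 3 in SK-UT-1 cells. These shares, 21.4% each, were close to the 21.9% and 18.3% of all measured genes. PRICKLE1, a cytoplasmic core component, had 128 counts in SK-LMS-1 cells and 4 in SK-UT-1 cells, 39.3-fold higher in SK-LMS-1 cells (15.0 to 146). Its paralogue PRICKLE2 stood at 47.3 CPM in SK-LMS-1 cells and 105.9 CPM in SK-UT-1 cells, 2.24-fold higher in SK-UT-1 cells (1.96 to 2.56). Of the membrane components, VANGL2 had 0 counts in SK-LMS-1 cells and 115 in SK-UT-1 cells, higher in SK-UT-1 cells by at least 31.2-fold, and CELSR1 had 4 and 191 counts, 38.9-fold higher in SK-UT-1 cells (14.9 to 144).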
